A study of Mus musculus with 10 samples.

Results

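DNA replication and G1/S genes were followed as a set of 32 genes in BCR-ABL+ mouse bone marrow colonies that lacked Cdk6 or carried a kinase-dead form of it. The set comprised every non-control probe whose transcript belongs to one of 32 listed replication and G1/S genes. It held 49 of 56605 probes on the array and 32 of the 22008 genes tested. Cells copy their genome once per cycle. In G1, the origin recognition complex, Cdc6 and Cdt1 load the MCM helicase onto origins, and at the start of S phase Cdc45, the GINS complex and Mcm10 help to turn it into an active fork. Transcription of these genes, of cyclin E and of the enzymes that supply nucleotides is driven largely by E2F factors. Cyclin D-CDK4 and cyclin D-CDK6 kinases release E2F by phosphorylating the retinoblastoma protein.

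The mutant colonies were Cdk6-/-, the knockout genotype, and Cdk6-K43M, whose substitution leaves a CDK6 protein without kinase activity. Colonies of Cdk6+/+ genotype served as wild type, with 4 RNAs combined into 1 pool. All 3 groups shared the same treatment and BCR-ABL, the fusion tyrosine kinase of Philadelphia chromosome-positive leukaemia. Marrow of donors aged 6 weeks was exposed to retroviral supernatant, plated 24 h later in methylcellulose free of growth factors, and colonies were picked on day 10. Each of 4 Cdk6-/- and 4 Cdk6-K43M samples was hybridised in Cy5 on a 2-colour array against the wild-type pool in Cy3. On 1 further array per genotype, the dyes were exchanged, with the 4 mutant RNAs pooled in Cy3 and Cy5 on the wild-type pool, so 10 arrays were measured. The samples are described as biological replicates of colonies without being tied to separate animals or cultures, so p-values measure only the spread between these samples, which may be technical. The sources used here do not give how the Cdk6-/- allele was made, or how many animals or colonies lie behind a sample.

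No array stood apart in brightness. Probes well above background made up 46.9 to 49.9% in the mutant channel and 45.8 to 50% in the wild-type channel, and none of the spots was saturated. Precision is set by how many arrays there were. Cdk6, the gene altered in both mutants, had log2 ratios of -0.67 to 0.0024 on the 5 Cdk6-/- arrays and of 0.31 to 0.83 on the 5 Cdk6-K43M arrays. Where its probe lies relative to the deleted part is not given, so this does not check the labels. The tissue label is bone marrow. All 18 B-lineage markers, Pax5, Ebf1 and Rag1 among them, were well above background in every sample and wild-type channel. Of 18 myeloid markers, 15 were tested and 8 were well above background everywhere. The granule protein genes Ngp, Camp and Mpo were not well above background in any mutant sample, nor was S100a8 in any Cdk6-/- sample. Of the 32 replication and G1/S genes, 31 were well above background in every sample and wild-type channel. The exception was Ccne2, detected in 2 of 4 Cdk6-/- samples, 4 of 4 Cdk6-K43M samples and 7 of 10 wild-type channels.

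Promoters of 6 of these genes are printed because the set moved largely together and E2F and NF-Y are the factors best known for binding such promoters. Mcm2, Rrm2, Pola1 and Rpa2 had the smallest p-values among genes that fell in a mutant. Tk1 and Chaf1b, which passed in neither, had the largest when each gene with a promoter was ranked by the smaller p of its comparisons with wild type. Each sequence is from RefSeq annotation of GRCm38.p6, runs 5′ to 3′ on the gene's own strand, and covers 250 bases before the transcription start and 50 after it. Capitals mark E2F words (TTCCCGC or TTCGCGC or TTGCCGC or TTGGCGC) and the NF-Y word (CCAAT), each on either strand. The reverse complement of TTGGCGC ends in CCAA, so both words can share letters. Mcm2 lies at chr6:88898731-88899030 on the minus strand, Rrm2 at chr12:24708004-24708303 on the plus strand, Pola1 at chrX:93632106-93632405 on the minus strand and Rpa2 at chr4:132768110-132768409 on the plus strand. Tk1 lies at chr11:117825965-117826264 on the minus strand and Chaf1b at chr16:93883651-93883950 on the plus strand.
Mcm2: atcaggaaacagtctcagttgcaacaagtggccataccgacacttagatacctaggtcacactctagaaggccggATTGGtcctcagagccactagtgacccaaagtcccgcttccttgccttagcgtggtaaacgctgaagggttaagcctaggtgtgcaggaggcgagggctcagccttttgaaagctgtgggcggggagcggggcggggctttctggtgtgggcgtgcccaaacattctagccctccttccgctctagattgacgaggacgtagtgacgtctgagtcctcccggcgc
Rrm2: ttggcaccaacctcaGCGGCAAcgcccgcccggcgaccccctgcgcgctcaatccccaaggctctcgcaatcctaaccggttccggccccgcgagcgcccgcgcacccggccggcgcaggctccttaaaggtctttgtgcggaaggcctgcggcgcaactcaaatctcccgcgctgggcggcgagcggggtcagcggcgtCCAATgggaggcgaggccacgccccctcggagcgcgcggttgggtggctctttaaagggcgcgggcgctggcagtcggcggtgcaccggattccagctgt
Pola1: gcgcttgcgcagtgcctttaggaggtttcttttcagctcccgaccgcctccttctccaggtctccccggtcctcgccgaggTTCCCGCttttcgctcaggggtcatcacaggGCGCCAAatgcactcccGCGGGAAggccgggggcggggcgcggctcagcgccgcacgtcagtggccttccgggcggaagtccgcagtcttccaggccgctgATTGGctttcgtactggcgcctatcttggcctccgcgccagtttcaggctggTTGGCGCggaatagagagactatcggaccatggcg
Rpa2: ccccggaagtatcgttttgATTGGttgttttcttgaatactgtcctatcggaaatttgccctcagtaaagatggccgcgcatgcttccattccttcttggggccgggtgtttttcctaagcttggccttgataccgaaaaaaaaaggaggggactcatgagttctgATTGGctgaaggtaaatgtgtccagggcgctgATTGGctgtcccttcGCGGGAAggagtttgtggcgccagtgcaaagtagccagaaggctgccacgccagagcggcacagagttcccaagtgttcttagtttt
Tk1: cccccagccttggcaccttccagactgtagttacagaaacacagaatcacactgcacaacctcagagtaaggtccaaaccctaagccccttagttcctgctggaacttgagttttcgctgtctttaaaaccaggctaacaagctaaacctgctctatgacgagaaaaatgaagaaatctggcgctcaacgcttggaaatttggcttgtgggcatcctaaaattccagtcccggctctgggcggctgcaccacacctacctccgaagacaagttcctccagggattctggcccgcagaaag
Chaf1b: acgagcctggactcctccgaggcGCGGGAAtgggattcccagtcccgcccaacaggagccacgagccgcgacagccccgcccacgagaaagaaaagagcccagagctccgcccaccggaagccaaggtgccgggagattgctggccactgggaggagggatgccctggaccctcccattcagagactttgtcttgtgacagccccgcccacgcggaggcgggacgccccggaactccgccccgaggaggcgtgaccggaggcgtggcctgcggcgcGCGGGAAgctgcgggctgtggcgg

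Pola1 held 4 E2F words, Chaf1b 2, and Rrm2 and Rpa2 1 each, while the windows of Mcm2 and Tk1 held none. NF-Y words numbered 3 in Rpa2 and 1 each in Mcm2, Rrm2 and Pola1, with none in Tk1 or Chaf1b. RefSeq promoters were found for 28 of the 32 genes, and 4 of these had several, which gave 33 promoters. An E2F word stood in 66.7% of the 33, against 9.57% of all 32851 promoters of the same length and 15.7% of the 13152 promoters of genes tested here. The NF-Y word stood in 60.6% of the 33, against 37.4% of all promoters and 37.9% of those of tested genes. The SP1 word (GGGCGG, either strand) stood in 72.7%, against 35.7% of all promoters and 58.2% of those of tested genes, and the CHR word (TTTGAA, either strand), typical of genes of late cell cycle stages, in 9.09%, against 17.9% and 12.9%. By gene, 18 of the 22 genes that fell in at least 1 mutant and 1 of the 6 that passed in neither had an E2F word in a promoter. For NF-Y these counts were 16 of 22 and 2 of 6, and for SP1 15 of 22 and 6 of 6. A match describes letters in this window and is no test of binding. No test was made between the called and uncalled genes.

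Each comparison with wild type asked which transcripts differ from wild type when CDK6 is missing or lacks its kinase activity. The changes were small and nearly all downward, with fitted values of -0.68 to -0.27 (log2) among the genes that fell in Cdk6-/- and of -0.68 to -0.19 among those that fell in Cdk6-K43M. Of the 32 genes, 16 fell in Cdk6-/- colonies, none rose and 16 did not pass (limma, adjusted p below 0.05 over all 22008 genes). The background is that 3.85% of all genes fell and 3.39% rose in this comparison, 7.24% in all. In Cdk6-K43M colonies 18 fell, none rose and 14 did not pass, where 10.3% of all genes fell and 9.79% rose, 20.1% in all. Of the genes tested, 12999 have a gene symbol, as do all 32 genes of the set. Among these 5.13% fell and 3.99% rose in Cdk6-/-, and 12.3% fell and 12.7% rose in Cdk6-K43M. The median fitted change of the 32 genes was -0.28 (log2) in Cdk6-/- and -0.27 in Cdk6-K43M, beside 0.0014 and -0.010 over all genes tested, and the Cdk6-K43M median turned to 0.00572 with median centring in place of loess, where 17 of the 32 genes were above 0. Fitted values were below 0 for 31 of 32 genes in each mutant, the exceptions being Ung in Cdk6-/- and Ccne2 in Cdk6-K43M. At an unadjusted p below 0.05, 27 of the 32 genes passed in Cdk6-/-, where 24.8% of all genes did, and 22 in Cdk6-K43M, where 33.4% did. Both mutants were set against the same wild-type pool, so a peculiarity of that pool would appear in both.

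**Figure D1:**
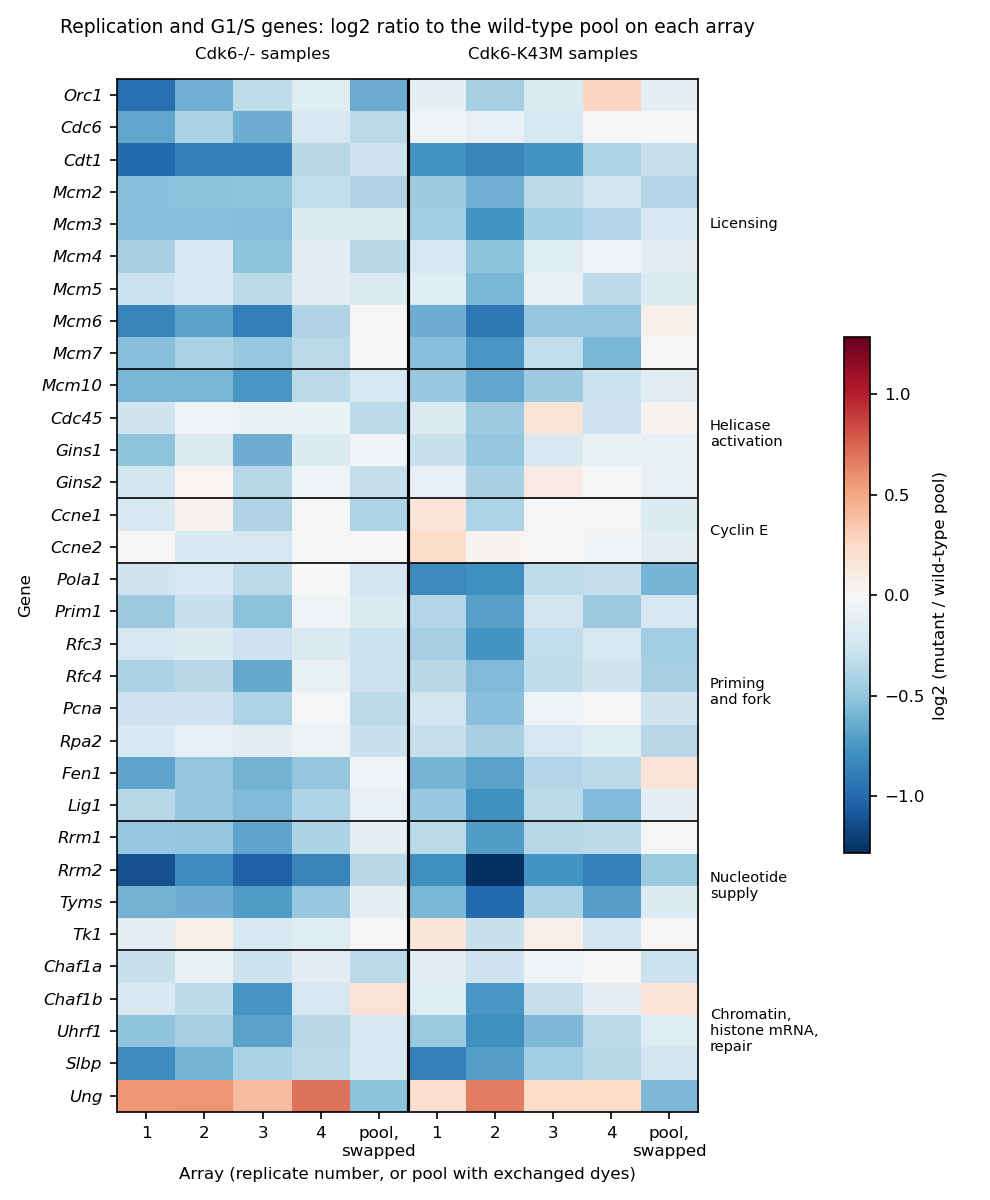
Heat map of the log2 ratio of mutant to wild-type pool for the 32 genes (rows, ordered by role) on each of the 10 arrays (columns, the Cdk6-/- arrays left and the Cdk6-K43M arrays right; the sign of the swapped pools is turned to match). Blue is lower than wild type. Rrm2 and Cdt1 were among the lowest in both mutants, and Ung was above 0 on the 8 single-sample arrays and below 0 on both swapped pools.

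The direction was shared by single arrays. The median log2 ratio over the 32 genes was -0.44, -0.35, -0.51 and -0.18 in Cdk6-/- replicates 1 to 4 and -0.24 in their swapped pool. It was -0.35, -0.64, -0.31 and -0.26 in Cdk6-K43M replicates 1 to 4 and -0.17 in their swapped pool. Every array thus had a median below 0, Cdk6-/- replicate 4 was the mildest of its genotype, and Cdk6-K43M replicate 2 the lowest of all. Replicate 4 had the highest Cdk6-/- value in 22 genes, and replicate 2 the lowest Cdk6-K43M value in 27 genes. The number of genes below 0 ran from 28 to 31 on the 5 Cdk6-/- arrays and from 26 to 30 on the 5 Cdk6-K43M arrays. Below 0 on all 5 arrays were 25 genes in Cdk6-/-, where 13.3% of all genes were, and 20 in Cdk6-K43M, where 15.4% were.

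The slide an array lay on was also examined. On slides 1, 2 and 3 the median over the 32 genes was -0.44, -0.37 and -0.35 for Cdk6-/- and -0.35, -0.45 and -0.31 for Cdk6-K43M, over 1, 2 and 1 samples of each genotype. With slide as a block, 4 of the 32 genes fell in Cdk6-/-, beside 1.5% of all genes, and 15 in Cdk6-K43M, beside 8.59%.

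Because the wild-type RNAs entered as 1 pool, counted as 1 control, no p-value contains variation between wild-type samples. With standard errors widened as if the pool varied like the mutant samples, none of the 32 genes passed in Cdk6-/- and 5 fell in Cdk6-K43M, namely Mcm2, Rrm2, Pola1, Rfc3 and Rpa2. Over all genes, 0.35% fell in Cdk6-/- and 2.94% in Cdk6-K43M with these errors. Without the Cdk6-/- swapped pool none of the 32 passed in Cdk6-/- (0.2% of all genes fell), and 2 fell there without the Cdk6-K43M swapped pool (0.904% of all genes). The median of the set in Cdk6-/- was then -0.268 and -0.285. The count in Cdk6-/- was 4, 6 and 7 without Cdk6-/- replicates 1, 2 and 3, beside 1.5%, 2.33% and 3.32% of all genes. It was 4 with either Agilent's processed signals or median centring in place of loess, beside 1.49% and 1.33% of all genes. In Cdk6-K43M none passed without its own swapped pool (1.29% of all genes fell and the median of the set was -0.291). There 8 fell with Agilent's processed signals, beside 5.54% of all genes, and 2 with median centring in place of loess, beside 3.51%. Across the single replicates left out, the median of the set stayed between -0.305 and -0.254 in Cdk6-/- and between -0.298 and -0.216 in Cdk6-K43M.

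**Figure D2:**
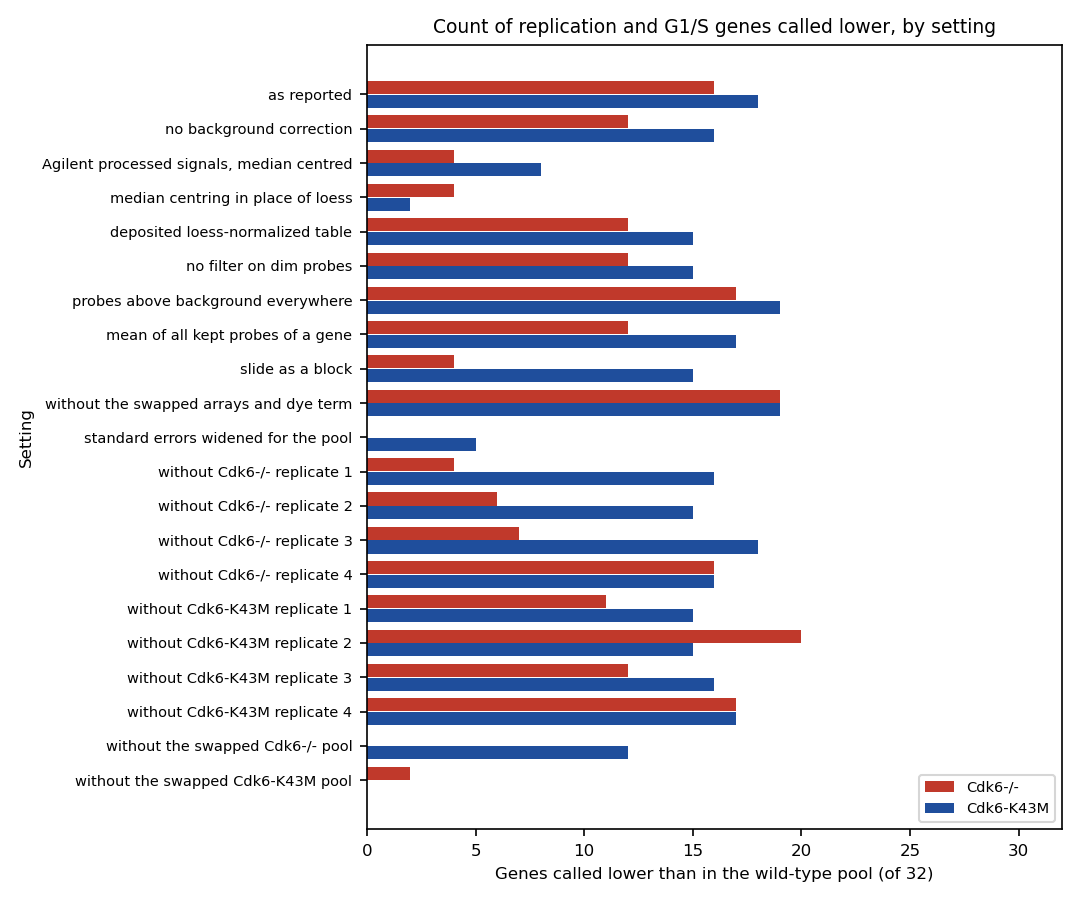
Number of the 32 genes called lower than in the wild-type pool (horizontal axis) under each processing setting (rows), red for Cdk6-/- and blue for Cdk6-K43M. The counts as reported are 16 and 18, and they fall to 0 for a genotype when its own swapped pool is left out. Without both swapped arrays and the dye term they are 19 and 19, beside 8.26% and 13.4% of all genes.

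Of the 9 genes of origin licensing, 6 fell in Cdk6-/- (median -0.35) and 5 in Cdk6-K43M (median -0.29). Mcm2, a subunit of the replicative helicase, had log2 ratios of -0.54, -0.53, -0.51 and -0.32 in Cdk6-/- replicates 1 to 4 and -0.39 in the swapped pool. In Cdk6-K43M it had -0.47, -0.61, -0.34 and -0.23, and -0.38 in the swapped pool. It was below the wild-type pool on all 10 arrays and the ranges of both mutants overlapped. The fitted change of Mcm2 was -0.44 (SE 0.0667, adjusted p = 0.00682) in Cdk6-/- and -0.39 (adjusted p = 0.00351) in Cdk6-K43M, which is 1.36-fold and 1.31-fold lower.

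Cdt1, which brings the MCM helicase to origins, had -0.99, -0.89, -0.88 and -0.36 in Cdk6-/- samples and -0.27 in their swapped pool. In Cdk6-K43M samples it had -0.77, -0.85, -0.76 and -0.40, with -0.30 in the swapped pool. Replicate 4 lay closest to wild type in both mutants. For Cdt1 the fitted change was -0.54 (adjusted p = 0.0179) in Cdk6-/- and -0.48 (adjusted p = 0.0105) in Cdk6-K43M. Mcm3, another helicase subunit, fell by 0.31 (adjusted p = 0.0475) in Cdk6-/- and by 0.36 (adjusted p = 0.0134) in Cdk6-K43M.

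Cdc6, the ATPase that works with Cdt1 at the origin, passed in Cdk6-/- and not in Cdk6-K43M. Its log2 ratios in Cdk6-K43M samples were -0.06, -0.10, -0.22 and -0.01, with -0.01 in the swapped pool. In Cdk6-/- samples they were -0.67, -0.41, -0.63 and -0.21, with -0.35 in the swapped pool. The single-sample ranges of Cdc6 touched, since the lowest Cdk6-K43M sample lay just below the highest Cdk6-/- sample. The fitted change of Cdc6 against wild type was -0.05 (adjusted p = 0.719) in Cdk6-K43M and -0.42 (adjusted p = 0.013) in Cdk6-/-. Orc1, the largest subunit of the origin recognition complex, had -0.12, -0.42, -0.18 and 0.26 in Cdk6-K43M samples and -0.13 in their swapped pool. In Cdk6-/- samples Orc1 had -0.97, -0.62, -0.33 and -0.16, and -0.63 in the swapped pool. Both genotypes overlapped, with a wide spread within Cdk6-/- (SD 0.357, n = 4). For Orc1 it was -0.14 (adjusted p = 0.532) in Cdk6-K43M and -0.56 (adjusted p = 0.0351) in Cdk6-/-.

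The other helicase subunits were split. Mcm6 fell in Cdk6-/- (-0.35, adjusted p = 0.0474) and had -0.29 in Cdk6-K43M (adjusted p = 0.0528). Mcm5 had -0.20 in Cdk6-/- (adjusted p = 0.137) and fell in Cdk6-K43M (-0.25, adjusted p = 0.0486), and Mcm7 had -0.21 in Cdk6-/- (adjusted p = 0.0917) and fell in Cdk6-K43M (-0.29, adjusted p = 0.0154). Mcm4 had -0.32 in Cdk6-/- (adjusted p = 0.0517) and -0.21 in Cdk6-K43M (adjusted p = 0.11). All 6 subunits of the MCM ring therefore had fitted values below 0 in both mutants, between -0.44 and -0.20 in Cdk6-/- and between -0.39 and -0.21 in Cdk6-K43M, where Mcm4, Mcm5 and Mcm6 turned to 0.067, 0.00131 and 0.0267 with median centring.

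**Figure D3:**
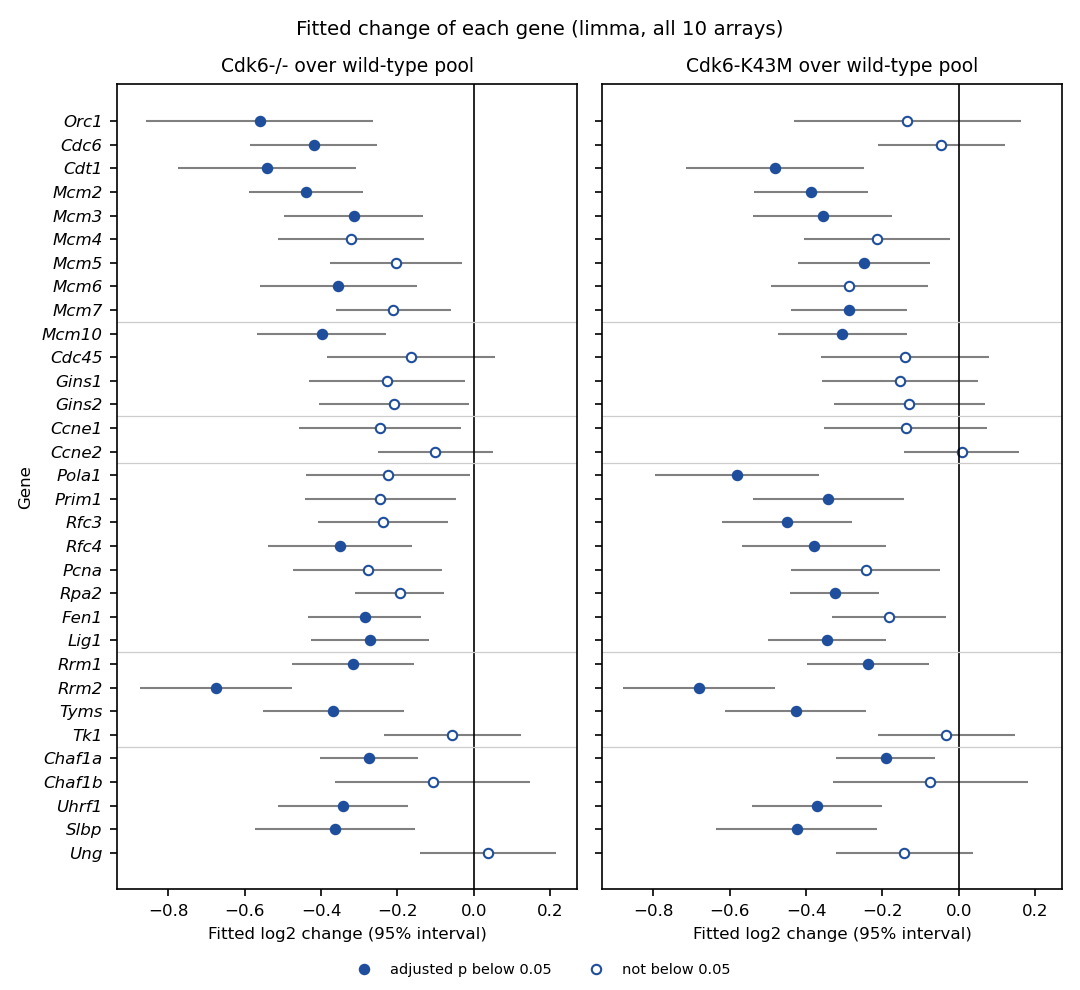
Fitted log2 change of each gene over the wild-type pool (horizontal axis) with its 95% interval, Cdk6-/- left and Cdk6-K43M right, in the order of roles used in the text. Filled points have an adjusted p below 0.05 (16 and 18 genes). All filled points lie below 0. Orc1, Cdc6, Mcm6 and Fen1 are filled on the left only, and Mcm5, Mcm7, Pola1, Prim1, Rfc3 and Rpa2 on the right only.

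Among the 4 genes of helicase activation only Mcm10, which helps the fork start unwinding, passed. It had -0.58, -0.59, -0.75 and -0.34 in Cdk6-/- samples and -0.23 in their swapped pool, and -0.49, -0.67, -0.46 and -0.27 in Cdk6-K43M samples and -0.14 in theirs. Mcm10 had a fitted change of -0.40 (adjusted p = 0.0168) in Cdk6-/- and -0.31 (adjusted p = 0.0188) in Cdk6-K43M. Cdc45, a component of the active helicase, had -0.16 and -0.14 in Cdk6-/- and Cdk6-K43M (adjusted p = 0.331 and 0.358). Gins1 had -0.23 and -0.15, and Gins2 -0.21 and -0.13, in the same order, without passing. Neither cyclin E gene, whose products activate CDK2 at the G1/S boundary, passed. Ccne1 had -0.25 in Cdk6-/- (adjusted p = 0.145) and -0.14 in Cdk6-K43M (adjusted p = 0.349). Ccne2 had -0.10 (adjusted p = 0.383) and 0.0079 (adjusted p = 0.953).

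Of the genes of priming and the fork, 6 of 8 were lower in Cdk6-K43M (median -0.34) and 3 of 8 in Cdk6-/- (median -0.26). Calls were also more frequent in Cdk6-K43M over all genes, of which 10.3% fell there and 3.85% in Cdk6-/-. Whether the counts of 6 and 3 differ was not tested. Pola1, the catalytic subunit of the polymerase that begins each new strand, had -0.82, -0.79, -0.33 and -0.31 in Cdk6-K43M samples and -0.60 in their swapped pool. In Cdk6-/- samples it had -0.26, -0.21, -0.35 and 0.00, and -0.25 in the swapped pool. The Cdk6-K43M samples lay lower, and 2 of them lay within the Cdk6-/- range. Against wild type, Pola1 had -0.58 (SE 0.0964, adjusted p = 0.00296) in Cdk6-K43M and -0.22 (adjusted p = 0.184) in Cdk6-/-.

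Rpa2, a subunit of the protein that coats single-stranded DNA, had -0.30, -0.42, -0.22 and -0.16 in Cdk6-K43M samples and -0.35 in their swapped pool. In Cdk6-/- samples it had -0.20, -0.11, -0.13 and -0.07, and -0.29 in the swapped pool. All 10 values were below 0 and the genotypes overlapped. Rpa2 fell by 0.32 (adjusted p = 0.0025) in Cdk6-K43M and had -0.19 (adjusted p = 0.0536) in Cdk6-/-. Rfc3, a subunit of the loader that places the sliding clamp on DNA, had -0.42, -0.77, -0.32 and -0.23 in Cdk6-K43M samples, against -0.22, -0.17, -0.27 and -0.18 in Cdk6-/- samples. The swapped pools gave -0.45 for Cdk6-K43M and -0.28 for Cdk6-/-. Its fitted change was -0.45 (adjusted p = 0.00338) in Cdk6-K43M and -0.24 (adjusted p = 0.0911) in Cdk6-/-.

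Rfc4, a second subunit of the clamp loader, fell in both mutants, by 0.35 (adjusted p = 0.0371) in Cdk6-/- and by 0.38 (adjusted p = 0.0119) in Cdk6-K43M. Lig1, the ligase that joins the pieces of the lagging strand, fell by 0.27 (adjusted p = 0.0445) and 0.35 (adjusted p = 0.00719) in Cdk6-/- and Cdk6-K43M. Prim1, the catalytic primase subunit, had -0.25 in Cdk6-/- (adjusted p = 0.122) and fell in Cdk6-K43M (-0.34, adjusted p = 0.0228). Pcna, the sliding clamp itself, had -0.28 (adjusted p = 0.0857) in Cdk6-/- and -0.24 (adjusted p = 0.078) in Cdk6-K43M. Fen1, the nuclease that trims flaps on the lagging strand, fell in Cdk6-/- (-0.29, adjusted p = 0.0328) and had -0.18 in Cdk6-K43M (adjusted p = 0.0805).

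The lowest gene of the whole set belonged to nucleotide supply. Rrm2, the small subunit of ribonucleotide reductase, had -1.12, -0.81, -1.04 and -0.84 in Cdk6-/- samples and -0.35 in their swapped pool. In Cdk6-K43M samples it had -0.79, -1.29, -0.76 and -0.87, and -0.48 in the swapped pool. All 8 single samples lay well below the wild-type pool, the genotypes overlapped, and both swapped pools lay nearer to 0. The fitted change of Rrm2 was -0.68 in both, with adjusted p = 0.0033 in Cdk6-/- and 0.000941 in Cdk6-K43M, or 1.60-fold lower. Rrm1, the large subunit of the same enzyme, fell by 0.32 (adjusted p = 0.0305) in Cdk6-/- and by 0.24 (adjusted p = 0.0418) in Cdk6-K43M, where it turned to 0.0162 with median centring. Tyms, which makes thymidylate, fell by 0.37 (adjusted p = 0.0306) and by 0.43 (adjusted p = 0.00634) in Cdk6-/- and Cdk6-K43M. Tk1, thymidine kinase of the salvage route, had -0.06 (adjusted p = 0.711) and -0.03 (adjusted p = 0.817) and was above 0 in 1 Cdk6-/- and 2 Cdk6-K43M samples.

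Of the 5 genes of chromatin, histone mRNA and repair, Uhrf1, Slbp and Chaf1a fell in both mutants. Uhrf1, which helps to copy DNA methylation at the fork, had -0.52, -0.43, -0.68 and -0.36 in Cdk6-/- samples and -0.22 in their swapped pool. In Cdk6-K43M samples it had -0.48, -0.79, -0.58 and -0.34, and -0.17 in the swapped pool. It was below 0 on every array, and fell by 0.34 (adjusted p = 0.029) in Cdk6-/- and by 0.37 (adjusted p = 0.00809) in Cdk6-K43M. Slbp, which binds the stem-loop of histone mRNAs, fell by 0.36 (adjusted p = 0.0471) in Cdk6-/- and by 0.42 (adjusted p = 0.0115) in Cdk6-K43M. Chaf1a, a subunit of the chromatin assembly factor CAF-1, fell by 0.27 (adjusted p = 0.0242) and by 0.19 (adjusted p = 0.0414) in Cdk6-/- and Cdk6-K43M, turning to 0.0101 in Cdk6-K43M with median centring. Its partner Chaf1b had -0.11 (adjusted p = 0.604) and -0.07 (adjusted p = 0.704). Chaf1b was below 0 on all 8 single-sample arrays, with means of -0.38 in Cdk6-/- and -0.33 in Cdk6-K43M. On the swapped pools it was above 0, at 0.19 and 0.16, and its dye term did not pass (limma, adjusted p = 0.127).

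In bulk RNA, fewer cells in S phase and less of these transcripts per cell cannot be told apart. Mcm6, Cdc6, Orc1 and Fen1 passed against wild type in Cdk6-/- and not in Cdk6-K43M, and Mcm5, Mcm7, Pola1, Prim1, Rfc3 and Rpa2 in Cdk6-K43M and not in Cdk6-/-. A gene that passes in 1 mutant and misses the threshold in the other is not thereby shown to differ between them.

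The third comparison asked that question directly, by setting the 4 Cdk6-K43M samples against the 4 Cdk6-/- samples, on whose arrays the wild-type pool and the dye cancel. No replication or G1/S gene differed between the mutants (limma, 0 of 32 higher and 0 lower at an adjusted p below 0.05, beside 0.264% and 0.25% of all genes), and 2 had an unadjusted p below 0.05, where 14.1% of all genes did. These were Cdc6, with a difference of 0.38 (log2, Cdk6-K43M minus Cdk6-/-, 95% interval 0.129 to 0.634, adjusted p = 0.202), and Pola1, with -0.36 (95% interval -0.683 to -0.0325, adjusted p = 0.316). The widest estimate was that of Orc1, 0.41 (95% interval -0.0406 to 0.851, adjusted p = 0.391). The median difference over the 32 genes was 0.024. For none of the 32 were the 4 Cdk6-K43M samples all above or all below the 4 Cdk6-/- samples, where 4.06% and 4.11% of all genes had such a split. The 95% interval of the difference left out a 1.5-fold change in either direction for 29 of the 32 genes, and its median half-width was 0.278. For the other genes, Cdc6, Pola1 and Orc1, a change of that size lay inside the interval. The count of calls was 0 in each alternative run.

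Dye orientation mattered for some genes. The fit holds a dye term, which passed at an adjusted p below 0.05 in 4 of the 32 genes and in 1432 of all 22008 genes tested. Fen1 had -0.68, -0.50, -0.61 and -0.50 on the single Cdk6-/- arrays but -0.04 on the swapped pool, and -0.59, -0.68, -0.37 and -0.35 on the single Cdk6-K43M arrays but 0.18 on theirs. Its dye term was -0.30 (adjusted p = 0.0076). Mcm6 and Mcm7 behaved likewise on their brightest probes, with means of -0.71 and -0.45 on the single Cdk6-/- arrays. On the single Cdk6-K43M arrays these were -0.64 and -0.55, while the swapped values lay between -0.0034 and 0.06. Ung, the glycosylase that removes uracil from DNA, was the reverse, with 0.55, 0.56, 0.39 and 0.70 on the single Cdk6-/- arrays and -0.53 on the swapped pool, and 0.20, 0.66, 0.25 and 0.25 on the single Cdk6-K43M arrays and -0.58 on theirs. Its dye term was 0.50 (adjusted p = 0.00139), and its fitted changes of 0.04 (adjusted p = 0.817) in Cdk6-/- and -0.14 (adjusted p = 0.25) in Cdk6-K43M did not pass. Without the swapped arrays and the dye term, Ung passed as higher in both mutants, at 0.341 in Cdk6-K43M. The dye pattern of Mcm6 and Mcm7 was not shared by their other probes. On the swapped Cdk6-/- and Cdk6-K43M pools the other Mcm6 probe had -0.42 and -0.16, and the other Mcm7 probe -0.46 and -0.50. Over the 32 genes the median was -0.379 for the single Cdk6-/- arrays, by the mean of each gene, and -0.239 for the swapped pool. For Cdk6-K43M it was -0.394 and -0.171. Single arrays were further below 0 in 21 genes in Cdk6-/- and 22 in Cdk6-K43M. Each swapped array holds a pool of the same 4 RNAs and is no new sample.

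**Figure D4:**
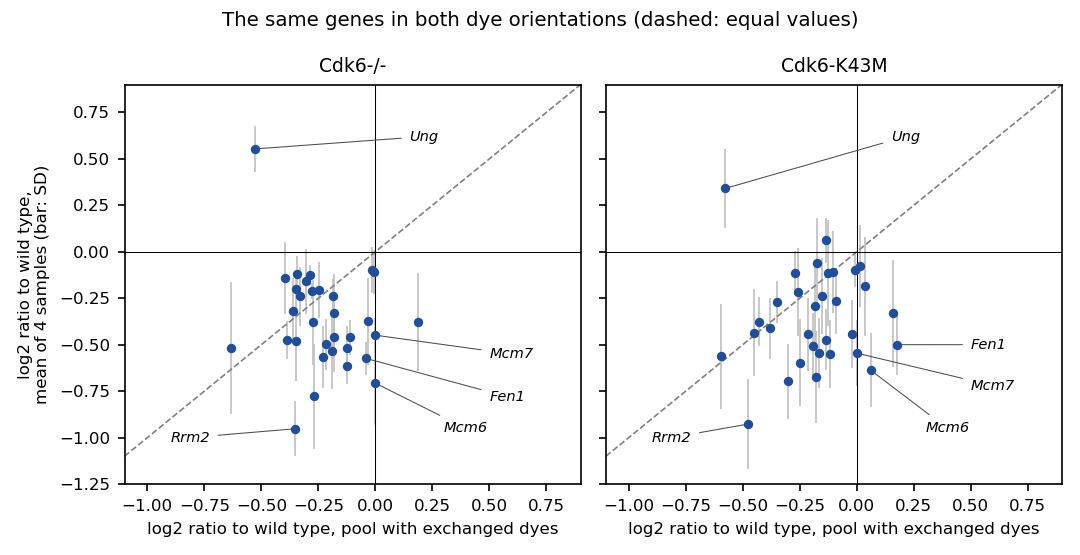
Each of the 32 genes by its log2 ratio to wild type on the swapped pool (horizontal axis) and the mean of the 4 single-sample arrays (vertical axis, bars show the SD), Cdk6-/- left and Cdk6-K43M right, with a dashed line where both are equal. Most points lie below the dashed line. Each gene is shown by its brightest probe. By that probe Mcm6, Mcm7 and Fen1 lie near 0 on the swapped pools, and Ung has opposite signs.

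Of the 32 genes, 16 were measured by several probes, and the brightest stood for the gene. Averaged over the 5 arrays of a genotype, all probes of a gene had the same sign for 16 of 16 genes in Cdk6-/- and for 14 of 16 in Cdk6-K43M. The exceptions were Gins1, with -0.23 on the brightest and 0.10 on the other probe, and Gins2, with -0.11 and 0.0066. In Cdk6-/- the brightest probe was the lower in 14 of 16 genes. Lig1, for example, had -0.39 on its brightest and -0.04 on its other probe in Cdk6-/-, and -0.46 and -0.12 in Cdk6-K43M.

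Of 60 further replication and G1/S genes, 9 fell and none rose in Cdk6-/- (median -0.11), beside 3.85% and 3.39% of all genes. In Cdk6-K43M 11 fell and 1 rose (median -0.09), beside 10.3% and 9.79%. The same 4 genes had the smallest p in each mutant. Dbf4, the activating subunit of the kinase that fires origins, fell by 0.56 (adjusted p = 0.00665) in Cdk6-/- and by 0.57 (adjusted p = 0.00171) in Cdk6-K43M. Gmnn, geminin, the inhibitor of Cdt1, fell by 0.36 (adjusted p = 0.0176) and by 0.63 (adjusted p = 0.000393). Atad5, which unloads the sliding clamp, fell by 0.46 in both (adjusted p = 0.00152 and 0.00055), and Rpa1, the large subunit of the single-strand binding protein, by 0.34 (adjusted p = 0.0162) and 0.40 (adjusted p = 0.00236), each given for Cdk6-/- first. The gene that rose in Cdk6-K43M was the origin recognition subunit Orc4 (0.23, adjusted p = 0.0345). None of the 60 passed in the comparison between the mutants.

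**Figure D5:**
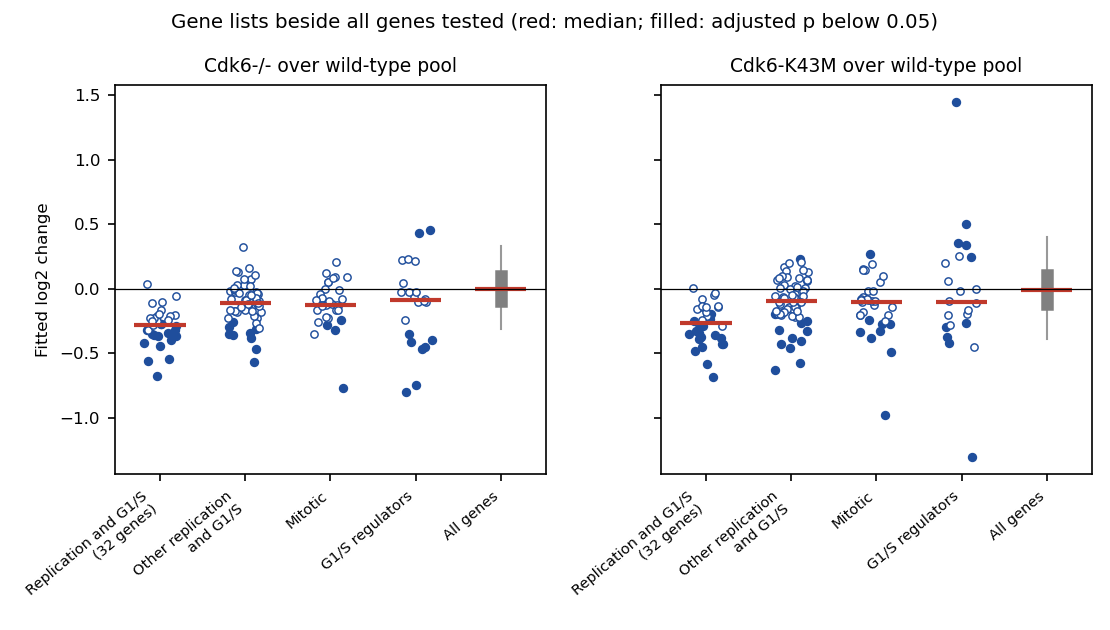
Fitted log2 change over the wild-type pool (vertical axis) of each gene in 4 lists, Cdk6-/- left and Cdk6-K43M right, with filled points where adjusted p is below 0.05 and red lines at the medians. The grey bar and line for all genes span the percentiles 25 to 75 and 5 to 95. The 32 genes have the lowest medians of the 4 lists (-0.28 and -0.27), and the other medians lie between -0.12 and -0.09.

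Among 32 mitotic genes 4 fell in Cdk6-/- and none rose (median -0.12), beside 3.85% and 3.39% of all genes. In Cdk6-K43M 8 fell and 1 rose (median -0.10), beside 10.3% and 9.79%. Nek2, a kinase of centrosome separation, fell by 0.77 (adjusted p = 0.000194) in Cdk6-/- and by 0.97 (adjusted p = 2.21e-05) in Cdk6-K43M. Ccnb1, cyclin B1, fell by 0.28 (adjusted p = 0.049) and 0.49 (adjusted p = 0.00184), and Prc1, a protein of the spindle midzone, by 0.24 (adjusted p = 0.0414) and 0.33 (adjusted p = 0.00532), in the same order. Birc5, survivin, fell by 0.32 (adjusted p = 0.0322) in Cdk6-/- and by 0.27 (adjusted p = 0.0273) in Cdk6-K43M. The centromere motor gene Cenpe had -0.13 (adjusted p = 0.358) in Cdk6-/- and fell by 0.33 (adjusted p = 0.0175) in Cdk6-K43M. The gene that rose in Cdk6-K43M was the spindle factor Tpx2 (0.27, adjusted p = 0.0159).

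The 22 regulators of the G1/S transition moved in both directions. In Cdk6-/- 7 fell and 2 rose (median -0.09), beside 3.85% and 3.39% of all genes. In Cdk6-K43M 5 fell and 5 rose (median -0.10), beside 10.3% and 9.79%. E2f1, an activator E2F, had -0.53, -0.26, -0.47 and -0.27 in Cdk6-/- samples and -0.43 in their swapped pool, and -0.49, -0.71, -0.25 and -0.25 in Cdk6-K43M samples and -0.39 in theirs. It was below wild type on all 10 arrays, and fell by 0.39 (adjusted p = 0.0242) in Cdk6-/- and by 0.42 (adjusted p = 0.00693) in Cdk6-K43M. The repressor gene E2f7 fell by 0.46 (adjusted p = 0.0187) in Cdk6-/- and, named after its value was seen, by 0.30 (adjusted p = 0.0425) in Cdk6-K43M. E2f8, its close relative, fell by 0.75 (adjusted p = 0.0432) in Cdk6-/- and by 1.30 (adjusted p = 0.00152) in Cdk6-K43M. E2f5 rose by 0.43 (adjusted p = 0.00706) and 0.34 (adjusted p = 0.00663), and E2f6 by 0.45 (adjusted p = 0.0145) and 0.51 (adjusted p = 0.00282), in Cdk6-/- and Cdk6-K43M. Both encode E2F family members that can repress.

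Cdkn1a, which encodes the CDK inhibitor p21, fell by 0.80 (adjusted p = 0.0119) in Cdk6-/- and had -0.19 (adjusted p = 0.372) in Cdk6-K43M. Myc fell by 0.45 (adjusted p = 0.0255) in Cdk6-/- and had 0.20 (adjusted p = 0.185) in Cdk6-K43M. The retinoblastoma gene Rb1 fell in both mutants, by 0.35 (adjusted p = 0.0265) in Cdk6-/- and by 0.38 (adjusted p = 0.00765) in Cdk6-K43M. Its relative Rbl2 had -0.10 (adjusted p = 0.36) in Cdk6-/- and fell by 0.27 (adjusted p = 0.0155) in Cdk6-K43M. Ccnd1, cyclin D1, had 0.22 (adjusted p = 0.714) in Cdk6-/- and rose by 1.45 (adjusted p = 0.0119) in Cdk6-K43M. Cdk6 itself fell by 0.41 (adjusted p = 0.0368) in Cdk6-/- and rose by 0.35 (adjusted p = 0.031) in Cdk6-K43M. The E2F partner Tfdp1, named after its value was seen, had -0.03 (adjusted p = 0.864) in Cdk6-/- and rose by 0.24 (adjusted p = 0.0436) in Cdk6-K43M. None of the 22 regulators passed between the mutants at an adjusted p below 0.05, with differences (Cdk6-K43M minus Cdk6-/-) of -0.55 to 1.19. Cdk6 is among them, although against wild type it fell in Cdk6-/- and rose in Cdk6-K43M. Missing the threshold in this comparison therefore does not show equal levels.

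Some cell type markers also passed against wild type, and their part in the changes of the replication genes was not tested. Beside each marker count stand the shares of all genes. In Cdk6-/- 3.85% of all genes fell and 3.39% rose, and in Cdk6-K43M 10.3% fell and 9.79% rose. Of 15 tested myeloid markers, 6 fell and none rose in each mutant. Of these 15, 4 were well above background in no Cdk6-/- sample and 3 in no Cdk6-K43M sample. Ngp, Camp and Mpo reached it in no mutant sample, so only the wild-type channels kept them and they could hardly come out higher. The count and the medians over the 15 are therefore partly set by this filter. S100a9, a calcium-binding protein of neutrophils and monocytes, fell by 4.16 (adjusted p = 2.38e-07) in Cdk6-/-, where 3 of 4 samples were well above background, and by 3.94 (adjusted p = 2.98e-07) in Cdk6-K43M. Over the 15 tested myeloid markers, those not well above background in some samples included, the median log2 ratio was -1.09, -0.58, -0.67 and -0.67 in Cdk6-/- replicates 1 to 4 and -0.55 in their swapped pool. In Cdk6-K43M it was -0.66, -0.34, -0.74 and -0.0029, and -0.09 in the swapped pool. It was below 0 on all 10 arrays. Over the 8 markers well above background everywhere, it ran from -1.46 to -0.30 on the Cdk6-/- arrays and from -0.80 to 1.85 on the Cdk6-K43M arrays, so the Cdk6-K43M range depends on which markers are counted. Of 18 B-lineage markers, 1 rose and none fell in Cdk6-/-, and 5 rose and 4 fell in Cdk6-K43M. Igll1, part of the surrogate light chain, rose by 0.38 (adjusted p = 0.0125) in Cdk6-/-. In Cdk6-K43M the recombinase gene Rag2 rose by 1.14 (adjusted p = 0.00316) and the B-lineage factor Ebf1 by 0.40 (adjusted p = 0.00383), while the receptor gene Cd79b fell by 0.51 (adjusted p = 0.000956). Of 5 tested erythroid and megakaryocyte markers 1 rose in Cdk6-/- and none passed in Cdk6-K43M, and of 6 tested T and NK cell markers 2 rose and 1 fell in Cdk6-/- and 1 rose and 1 fell in Cdk6-K43M.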

How the data were processed

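RNA of 4 Cdk6-/- and 4 Cdk6-K43M samples and of 2 swapped genotype pools was hybridised with the wild-type pool on 10 Agilent 2-colour arrays. Per the file headers, Feature Extraction 11.5.1.1 made the deposited spot intensity values, used here as median signals, and 59305 non-control spots carried 56605 probes. The authors also deposited a table of loess-normalized log2 intensities per channel, whose differences served as an alternative. A part of its cells held dates in place of numbers and was taken as missing.

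Background was corrected by normexp (offset 50), arrays were normalized by loess, spots of a probe were averaged, and the sign of swapped arrays was turned. Probes well above background in at least 3 of 4 samples of a genotype or 5 of 10 wild-type channels were kept (28177), and the brightest stood for each gene. limma 3.58.1 in R 4.3.3 fitted both mutants and a dye term on all 10 arrays, and the difference between mutants on the 8 single-sample arrays. Benjamini-Hochberg adjustment ran over all 22008 genes, at a threshold of 0.05. The fits of Cdk6-/- against wild type and of the difference between mutants were tested on simulated data. In that order, 52% and 10% of simulated 1.25-fold changes were recovered, and 84% and 68% of 1.5-fold changes. False calls made up 4.17% and 6.67% of all calls. The simulated noise was independent between arrays, with no dye effect and no error shared through the wild-type pool. These shares therefore do not cover false calls that come from the pool. Groups came from the sample labels. Genes were assigned by transcript accession through RefSeq. Figures used Python 3.11.15 and matplotlib 3.10.9.

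All 32 genes are named. From the further replication, mitotic and G1/S regulator lists, up to 4 genes per direction and comparison with the smallest p past the threshold are named. The cell type markers did not follow this rule, and only some of those past the threshold are named. The 32 genes and the lists were chosen with earlier results of these data known. Alternatives covered background correction, normalization, dim probes, choice of probe, swapped arrays, slide, the spread of the pool, pairing, and each array left out.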

Additional observations from a re-analysis of the deposited data

Results flagged for a closer look

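In 5 of 64 groups of 4 samples (32 genes in 2 genotypes) the highest or lowest sample lay far from the other 3, with a gap to the nearest above Dixon's critical value for 4 samples, as a share of the group's range. Chance gives this in about 1 in 20 groups. In Cdk6-/-, replicate 4 was the sample apart for 3 genes, being nearest to the wild-type pool, at -0.31844 for Mcm2, -0.17716 for Mcm3 and -0.35881 for Cdt1. In Cdk6-K43M, replicate 2 stood apart for 2 genes, as the lowest sample of Rrm1 at -0.71827 and the highest of Ung at 0.65638. All values are log2 ratios to the wild-type pool.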

How the results depend on the processing

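The cause of each shift given here was not tested. The count of 16 genes lower in Cdk6-/- became 4 with Agilent's processed signals, 4 with median centring in place of loess and 4 with slide as a block. It became 0 with standard errors widened for the pool, 0 without the swapped Cdk6-/- pool and 2 without the swapped Cdk6-K43M pool. With single replicates left out it ran from 4, beside 1.5% of all genes, to 20, beside 4.33%. The count of 18 genes lower in Cdk6-K43M became 8 with Agilent's signals, 2 with median centring, 5 with widened errors and 0 without the swapped Cdk6-K43M pool. It was 15 to 18 with single replicates left out, beside 8.44 to 10.4% of all genes. Without the swapped arrays and the dye term, 19 genes were lower in each mutant, beside 8.26% of all genes in Cdk6-/- and 13.4% in Cdk6-K43M. In that setting 1 gene was higher in each mutant, Ung, at 0.341 in Cdk6-K43M. Median centring turned the Cdk6-K43M median to 0.00572, with 17 of 32 genes above 0. Among the genes that fell as reported it turned Mcm5 to 0.00131, Rrm1 to 0.0162 and Chaf1a to 0.0101, and moved the median difference between mutants to 0.2. Of the 32 genes, 26 lie in the brightest of 4 equal bins of genes by intensity, whose median over all genes in Cdk6-K43M was 0.201 under median centring and -0.0439 as reported. The authors' deposited table gave 12 lower genes in Cdk6-/- and 15 in Cdk6-K43M, beside 3.51% and 9.74% of all genes. The median of the set ran from -0.379 to -0.231 in Cdk6-/- over all settings. With the replicate number as a replicate block, the difference between mutants had 0 higher and 0 lower genes and a median of 0.0244. Same-numbered samples correlated in their deviations at 0.0839, -0.066, 0.228 and 0.139, so the numbers were not taken to pair samples. The 16 genes lower in Cdk6-/- passed in 5 (Lig1) to 18 (Rrm2 and Mcm2) of 20 settings, with a median of 11, and the 18 lower in Cdk6-K43M in 4 (Mcm5) to 19 (Rrm2 and Pola1), with a median of 16. Wild-type spread could not be measured from 1 pool, and Ccne2 was near background in some channels.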
